A study of Mus musculus with 26 samples.

Results

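To set Dicer1-deleted pineoblastomas (PBs) beside a PB made by loss of Rb and p53 on one array version, 7 of the 26 samples of the series were used: the 6 Dicer1-deleted tumors and the single Rb/p53-deleted tumor, PB12, that were hybridized to Mouse Gene 2.0 ST arrays. The 6 were 3 Dicer1/p53-deleted PBs, from WAP-Cre mice with both copies of Dicer1 and of p53 floxed, and 3 Rb/Dicer1/p53-deleted PBs, in which both copies of Rb were floxed as well. PB12 came from a WAP-Cre mouse with both copies of Rb and of p53 floxed and Dicer1 left intact. All 7 tumors therefore lacked p53, PB12 shared the loss of Rb with 3 of the 6, and the other 3 kept Rb. In each model Cre came from a transgene with the whey acidic protein promoter, a mammary promoter, on a mixed genetic background of both sexes. The study proposes that the pineal activity of this transgene is likely due to where it integrated, since the endogenous gene is hardly expressed in the pineal gland. The labels give neither the age nor the sex of a mouse, and no normal tissue was on this array version. One array was made per tumor, so with 1 array on one side no test was possible and none is given. The members of the comparison are the genes for which PB12 lay outside the range of all 6 Dicer1-deleted tumors, and their distance is the gap between PB12 and the nearest of the 6 on the log2 scale, positive where the Dicer1-deleted tumors were higher.

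The pineal gland makes melatonin at night, and its cells share much of their gene program with retinal photoreceptors. Both tissues use the transcription factors Crx and Otx2. Dicer1 is the RNase III enzyme that cuts microRNA hairpins into mature microRNAs, which in turn lower the level of messenger RNAs that carry a match to the microRNA's seed. The retinoblastoma protein pRb holds E2F transcription factors in check, and E2F targets encode much of the machinery of DNA replication.

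The 7 arrays had medians between 5.256 and 5.365 on the log2 scale of robust multi-array average (RMA) signal. Pearson correlations over 22180 genes were 0.950 to 0.962 between PB12 and each Dicer1-deleted tumor, and 0.959 to 0.982 among the Dicer1-deleted tumors. Dicer1/p53-deleted PB3 stood apart: the interquartile range of its levels was 2.55, against 2.78 to 2.84 on the other 5 Dicer1-deleted arrays and 2.83 in PB12. It was also the only array high both in Xist, the RNA that coats the inactive X chromosome, and in Y-linked genes. Xist stood at 11.80, 11.44 and 10.29 in Dicer1/p53-deleted PB1 to PB3 and at 11.34, 6.4 and 10.01 in Rb/Dicer1/p53-deleted PB1 to PB3, against 5.00 in PB12. The Y-linked Uty stood at 3.07, 3.45 and 10.44 in the Dicer1/p53-deleted tumors and at 3.13, 8.68 and 4.16 in the Rb/Dicer1/p53-deleted tumors, against 4.47 in PB12. PB12 thus had low levels of both. Whether the array of Dicer1/p53-deleted PB3 holds RNA of a single mouse was not tested, so its values are open to that doubt.

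Of the targeted genes, Dicer1 stood at 7.75, 8.03 and 7.95 in Dicer1/p53-deleted tumors and 8.28, 7.88 and 7.81 in Rb/Dicer1/p53-deleted tumors, against 8.27 in PB12, which lay inside their range. The floxed Dicer1 allele loses one segment of a long transcript, so a level over the whole transcript is no check of the deletion. Rb1 separated the genotypes. It stood at 9.52, 9.97 and 9.61 in the Dicer1/p53-deleted tumors, which keep Rb, and at 8.79, 8.54 and 8.30 in the Rb/Dicer1/p53-deleted tumors, against 9.07 in PB12. Trp53 was not analysed here.

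PB12 lay below all 6 Dicer1-deleted tumors in 4079 genes (18.4% of 22180) and above all 6 in 4083 genes (18.4%). The distance reached 1 log2 unit, the limit used from here on, in 156 genes that were higher in the Dicer1-deleted tumors (0.703%) and in 200 genes that were lower (0.902%). It reached 2 log2 units in 18 and 26 genes and 3 log2 units in 4 and 8 genes. The limit cuts a continuum: Fam98a, at 1.001, was the last gene taken among those higher and Atp10d, at 1.000 after rounding, the first left out, while Slc22a30 was the last taken among those lower and Olfr1425, at -0.999, the first left out. Without Dicer1/p53-deleted PB3 the counts were 202 and 225.

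A gene had to pass in both Dicer1-deleted genotypes to be counted. Against PB12 alone, the 3 Dicer1/p53-deleted tumors were all higher by 1 log2 unit in 291 genes (1.31%) and all lower in 415 (1.87%), and the 3 Rb/Dicer1/p53-deleted tumors in 322 (1.45%) and 351 (1.58%). The 156 genes higher in all 6 were 53.6% of the Dicer1/p53-deleted list and 48.4% of the Rb/Dicer1/p53-deleted list, and the 200 lower genes were 48.2% and 57.0% of them. Both lists share PB12, so the overlap is given as a description.

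**Figure D1:**
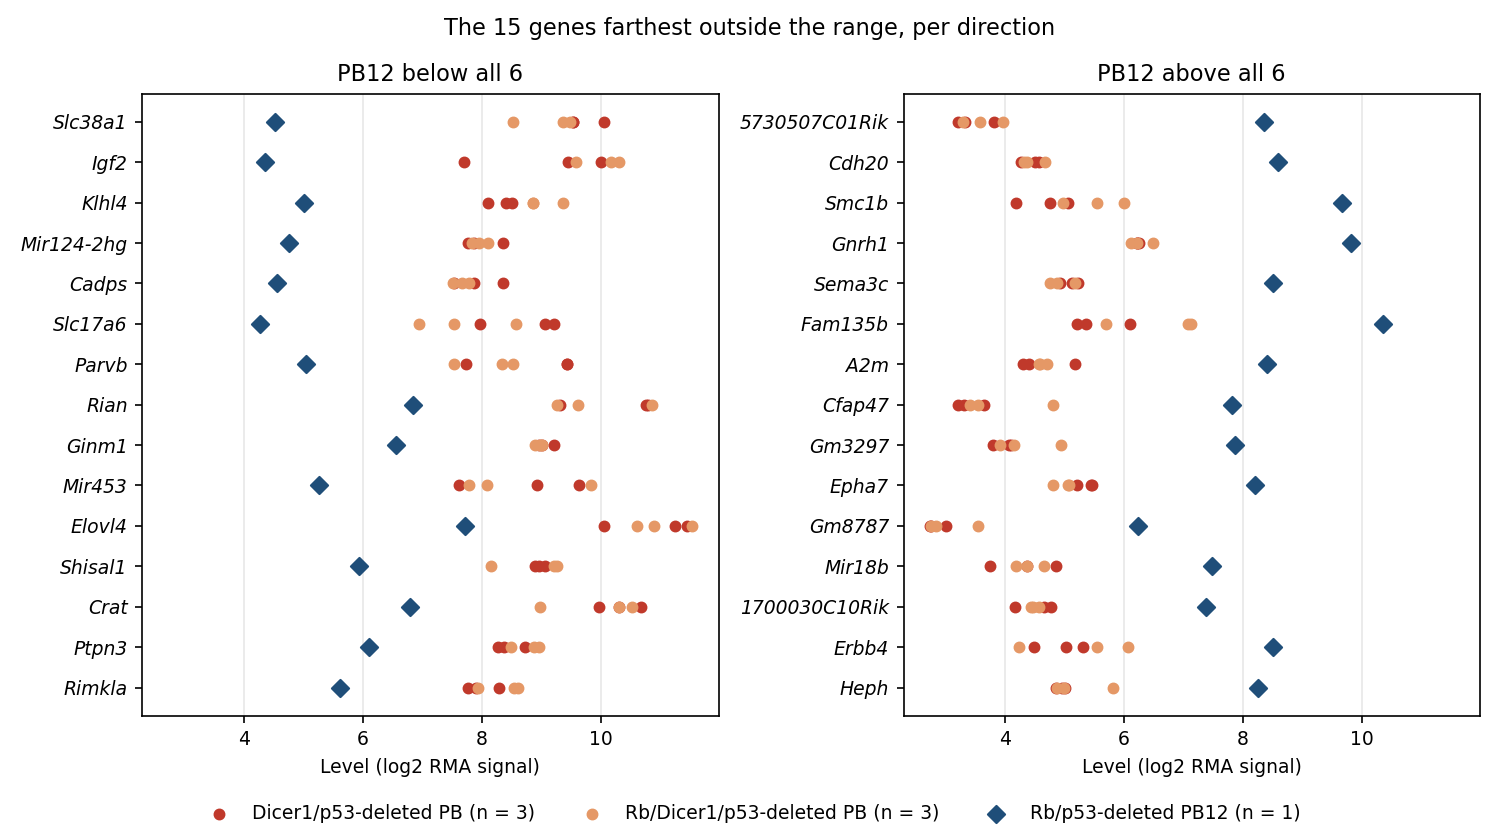
Level (log2 RMA signal) of the 15 genes per direction with the greatest distance between Rb/p53-deleted PB12 (diamonds, 1 array) and the nearest of the 6 Dicer1-deleted tumors (circles, 1 per array). In Slc38a1 the 6 tumors sit between 8.53 and 10.05 and PB12 at 4.53, and in Cdh20 they sit between 4.26 and 4.67 and PB12 at 8.58.

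Slc38a1, a transporter of glutamine and other neutral amino acids, had the greatest distance among genes higher in the Dicer1-deleted tumors. It stood at 10.05, 9.53 and 9.53 in Dicer1/p53-deleted PBs and 8.53, 9.48 and 9.37 in Rb/Dicer1/p53-deleted PBs, against 4.53 in PB12, a distance of 3.99. The growth factor gene Igf2 followed, with 7.70 to 10.30 in the Dicer1-deleted tumors and a mean of 9.05 in Dicer1/p53-deleted PBs and 10.02 in Rb/Dicer1/p53-deleted PBs, against 4.36 in PB12. Dicer1/p53-deleted PB2 was the lowest of the 6 in Igf2 and still 3.34 above PB12. Klhl4, on the X chromosome, spanned 8.10 to 9.37 in the Dicer1-deleted tumors against 5.01 in PB12. Mir124-2hg, the host transcript of a hairpin of the neuronal microRNA miR-124, stood at 7.87, 8.36 and 7.76 in Dicer1/p53-deleted PBs and 7.83, 8.10 and 7.95 in Rb/Dicer1/p53-deleted PBs, against 4.75 in PB12. The 6 tumors were close together in this transcript (SD 0.219) and all at least 3.02 above PB12.

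Among the other genes far above PB12, Cadps, which primes dense-core vesicles for fusion, ranged from 7.52 to 8.36 in the Dicer1-deleted tumors against 4.56 in PB12. Slc17a6, the vesicular glutamate transporter VGLUT2, stood at 9.21, 9.06 and 7.97 in Dicer1/p53-deleted PBs and 6.94, 8.57 and 7.53 in Rb/Dicer1/p53-deleted PBs, against 4.27 in PB12. Rimkla, an enzyme that joins N-acetylaspartate to glutamate, ranged from 7.76 to 8.61 against 5.61 in PB12. Of the 14 measured neuroendocrine and synaptic markers 3 were higher (21.4%, against 18.4% of all genes), 2 were lower and 9 had PB12 inside the range, among them synaptophysin (Syp) and chromogranin A (Chga). The farthest was neuron-specific enolase Eno2, at 7.32 to 8.52 against 5.68 in PB12, a distance of 1.64. The remaining genes of the 15 were Parvb (a focal adhesion protein, distance 2.49), Rian (2.42), Ginm1 (2.36), Mir453 (2.35), Elovl4 (an elongase of very long chain fatty acids, 2.32), Shisal1 (2.21), Crat (carnitine acetyltransferase, 2.18) and Ptpn3 (a tyrosine phosphatase, 2.17). For Crat, another transcript cluster of the same gene had a distance of 0.76.

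Among genes lower in the Dicer1-deleted tumors, the greatest distance belonged to 5730507C01Rik, a gene without an assigned name, with 3.81, 3.32 and 3.20 in Dicer1/p53-deleted PBs and 3.29, 3.57 and 3.97 in Rb/Dicer1/p53-deleted PBs, against 8.35 in PB12. Cdh20, a cadherin of cell adhesion, stood at 4.56, 4.26 and 4.50 in Dicer1/p53-deleted PBs and 4.36, 4.67 and 4.31 in Rb/Dicer1/p53-deleted PBs, against 8.58 in PB12, a distance of -3.91. All 6 tumors sat below the median of their own array in both genes. Gnrh1, which encodes gonadotropin-releasing hormone, ranged from 6.11 to 6.48 against 9.82 in PB12. The secreted guidance cue Sema3c ranged from 4.75 to 5.22 against 8.50 in PB12, and the ephrin receptor Epha7 from 4.80 to 5.46 against 8.20. The neuregulin receptor Erbb4 stood at 5.31, 5.03 and 4.49 in Dicer1/p53-deleted PBs and 6.06, 5.54 and 4.23 in Rb/Dicer1/p53-deleted PBs, against 8.50 in PB12. A2m, a secreted protease inhibitor, ranged from 4.30 to 5.17 against 8.41, and Heph, a copper ferroxidase that exports iron, from 4.86 to 5.82 against 8.25. Cxcr4, a chemokine receptor and the only one of 26 measured genes taken from the study's text to pass 1 log2 unit, ranged from 6.12 to 7.10 against 8.21 in PB12.

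**Figure D2:**
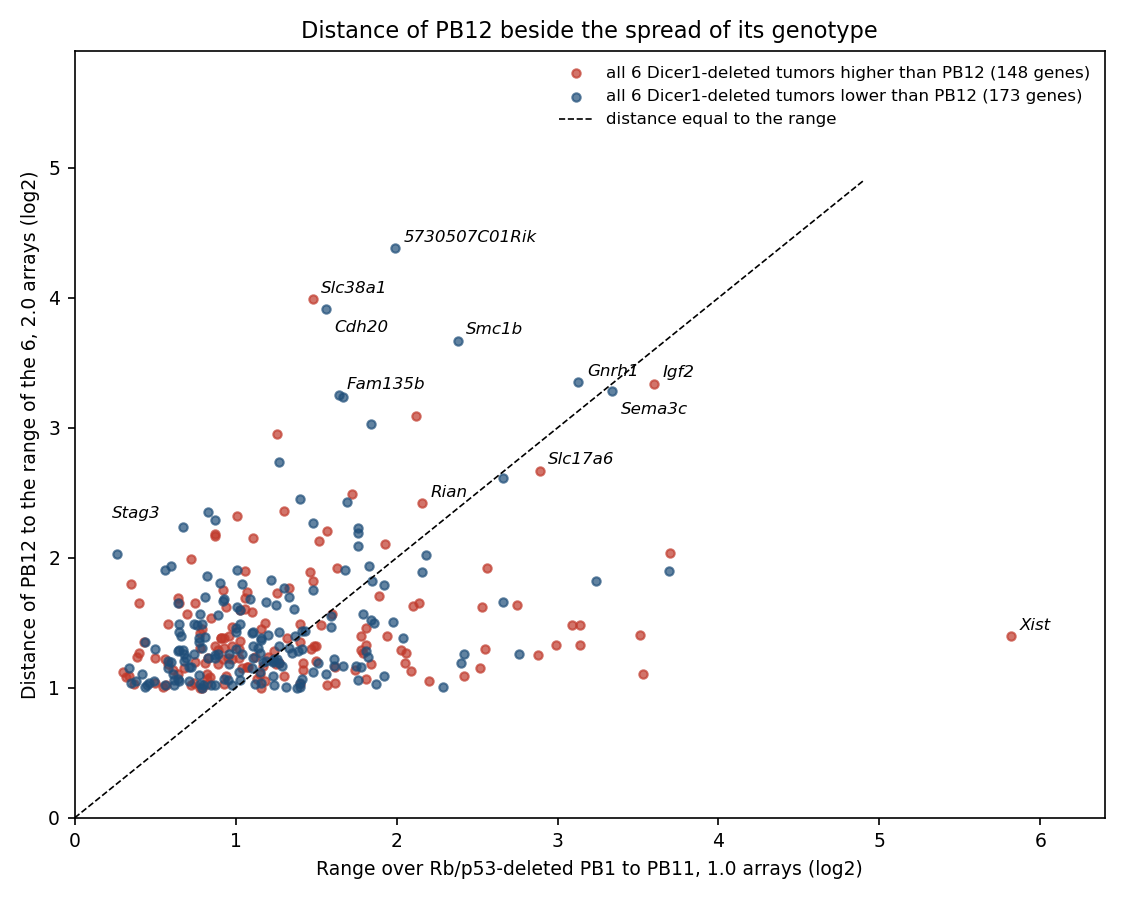
Distance of PB12 to the range of the 6 Dicer1-deleted tumors on version 2.0 arrays (vertical, log2) against the range of the same gene over the 11 Rb/p53-deleted tumors PB1 to PB11 on version 1.0 arrays (horizontal, log2), for the 321 genes past 1 log2 unit that both versions measure, with a dashed line where both are equal. The 214 genes above the line have a distance greater than their range over PB1 to PB11, among them Slc38a1 and Cdh20, while Igf2, Sema3c and Xist lie below it.

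A single tumor has no spread of its own, so the distance of each gene was set beside its range over the 11 Rb/p53-deleted tumors PB1 to PB11, which were run on Mouse Gene 1.0 ST arrays. Levels were not compared between the array versions. Whether a log2 unit spans the same change on both versions was not tested, so a distance beyond a range is only a description. Of the 156 higher genes 148 were also in that table, with a median range of 1.14, and the distance was greater than the range in 94 of them (63.5%). Of the 200 lower genes 173 were in it, also with a median range of 1.14, and the distance was greater in 120 (69.4%). Over all 18962 genes in both tables it was greater in 642 (3.39%), but the 156 and 200 genes were chosen for a great distance, so nothing is read from this difference. For Slc38a1 the distance of 3.99 stood beside a range of 1.48, for Cdh20 3.91 in size beside 1.56, and for Fam135b 3.25 beside 1.64. Igf2 varied as widely among Rb/p53-deleted tumors as PB12 lay from the range, with a range of 3.60 beside a distance of 3.34. The same held for Sema3c (3.34 beside 3.28 in size), for Slc17a6 (2.89 beside 2.67) and for Xist (5.82 beside 1.4), whereas Gnrh1 (3.13 beside 3.35 in size) lay just on the other side. Within version 1.0, levels over PB1 to PB11 ran from 8.45 to 12.04 for Igf2, 6.96 to 8.44 for Slc38a1 and 9.09 to 10.66 for Cdh20. Igf2 was thus not low in any of these 11 tumors on the scale of that version. Whether PB12 departs from its genotype in these genes was not tested.

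The E2F target list lay mostly below PB12. None of its 40 measured genes was higher in all 6 Dicer1-deleted tumors and 26 were lower in all 6 (65.0%, against 18.4% of all genes), with a median difference of -0.66 between the mean of the 6 and PB12, against 0.01 over all genes. Brca2, which loads the recombinase in DNA repair, stood at 6.84, 6.94 and 7.24 in Dicer1/p53-deleted PBs and 7.81, 7.54 and 7.40 in Rb/Dicer1/p53-deleted PBs, against 8.72 in PB12. The replication factors Gins2 (7.71 to 8.31 against 8.94 in PB12) and Lig1 (8.15 to 8.72 against 9.33) lay next. No gene of the list passed 1 log2 unit. The mean level of the list was 8.01, 8.30 and 8.10 in Dicer1/p53-deleted PBs and 8.47, 8.53 and 8.59 in Rb/Dicer1/p53-deleted PBs, against 8.92 in PB12. The Rb/Dicer1/p53-deleted tumors, which like PB12 lack Rb, thus lay between the Rb-positive tumors and PB12, and the list's median difference from PB12 was -0.89 for Dicer1/p53-deleted PBs and -0.37 for Rb/Dicer1/p53-deleted PBs. Among the E2F genes, E2f2 lay below PB12 in all 6 tumors (6.58 to 7.46 against 7.94), while PB12 lay inside the range for E2f1 and E2f3. DNA repair genes of the BRCA and Fanconi pathways were also mostly lower, with 1 of 19 higher and 15 lower (78.9%) and a median difference of -0.60. They lacked the E2F list's split by genotype: the median difference was -0.68 for Dicer1/p53-deleted PBs and -0.73 for Rb/Dicer1/p53-deleted PBs. The helicase Brip1 ranged from 7.62 to 8.22 against 8.99 in PB12, and Nbn, of the break-sensing MRN complex, from 7.66 to 8.27 against 8.94. Of 29 mitotic genes 3 were higher (10.3%), 7 lower (24.1%) and 19 had PB12 inside the range, near the background, with a median of -0.16. The farthest was the mitotic kinase Aurka, which was higher (8.95 to 9.56 against 8.56 in PB12), while the proliferation marker Mki67 was lower (10.71 to 11.29 against 11.51).

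A group of 4 meiosis genes was among the 200 lower genes. Smc1b, the meiotic form of a cohesin ring subunit, stood at 5.06, 4.76 and 4.18 in Dicer1/p53-deleted PBs and 5.55, 6.0 and 4.98 in Rb/Dicer1/p53-deleted PBs, against 9.67 in PB12. Its partner Stag3 stood at 6.18, 5.92 and 5.77 in Dicer1/p53-deleted PBs and 6.03, 7.37 and 6.59 in Rb/Dicer1/p53-deleted PBs, against 9.61 in PB12. Zcwpw1, a reader of histone marks at recombination sites, ranged from 5.50 to 6.97 against 8.61, and Syce2, of the synaptonemal complex, from 6.19 to 7.15 against 8.41. Of 24 measured meiosis genes, in a list written after these values were seen, 6 were lower (25%, against 18.4% of all genes), 3 were higher and 15 had PB12 inside the range, so most meiosis genes did not share the pattern. Both Smc1b and Stag3 had a distance greater than their range among the other Rb/p53-deleted tumors, 3.67 in size beside 2.38 for Smc1b and 2.24 beside 0.67 for Stag3. Their levels in those tumors differed. On version 1.0 arrays the median over PB1 to PB11 was 6.49 for Smc1b (6.19 to 8.56) and 11.84 for Stag3 (11.55 to 12.21). Whether those tumors share the high Smc1b of PB12 was not tested, and a distance beyond the range does not show it.

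E2F factors bind sites that hold the letters TTCCCGC, so promoters were searched for these letters on both strands (GCGGGAA on the other). Of 16918 genes with a RefSeq promoter window of 250 bases before to 50 after the start (build GRCm38.p6), 6.88% held a match. The share was 41.7% for the E2F target list (15 of 36), 14.2% for the genes lower by 1 log2 unit (19 of 134) and 4.10% for the genes higher by 1 log2 unit (5 of 122). A match is only the presence of these letters. Stag3 and Smc1b were picked for their distances, so the match in their windows is an illustration and supports nothing. The windows of Brca2, Stag3 and Smc1b, the E2F target and the meiosis genes with the greatest distances, are shown with the match in capitals.
Brca2 (chr5:150522371-150522670, plus strand): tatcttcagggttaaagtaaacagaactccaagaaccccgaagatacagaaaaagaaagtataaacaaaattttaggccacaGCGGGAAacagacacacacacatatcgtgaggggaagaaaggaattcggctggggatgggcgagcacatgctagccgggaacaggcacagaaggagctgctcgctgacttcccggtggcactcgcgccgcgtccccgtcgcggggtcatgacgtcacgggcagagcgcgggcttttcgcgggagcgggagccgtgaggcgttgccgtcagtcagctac
Stag3 (chr5:138280259-138280558, plus strand): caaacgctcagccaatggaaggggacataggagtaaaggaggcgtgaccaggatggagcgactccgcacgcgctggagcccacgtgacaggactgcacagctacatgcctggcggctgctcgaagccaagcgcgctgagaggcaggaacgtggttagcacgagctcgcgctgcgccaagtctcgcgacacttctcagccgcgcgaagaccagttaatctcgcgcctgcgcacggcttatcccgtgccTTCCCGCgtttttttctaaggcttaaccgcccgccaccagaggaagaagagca
Smc1b (chr15:85131908-85132207, minus strand): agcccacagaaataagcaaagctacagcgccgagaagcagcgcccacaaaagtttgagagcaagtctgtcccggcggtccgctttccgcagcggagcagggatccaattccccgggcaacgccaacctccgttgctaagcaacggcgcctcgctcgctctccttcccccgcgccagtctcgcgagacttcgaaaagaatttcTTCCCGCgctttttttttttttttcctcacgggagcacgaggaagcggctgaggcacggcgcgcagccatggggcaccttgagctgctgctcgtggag

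**Figure D3:**
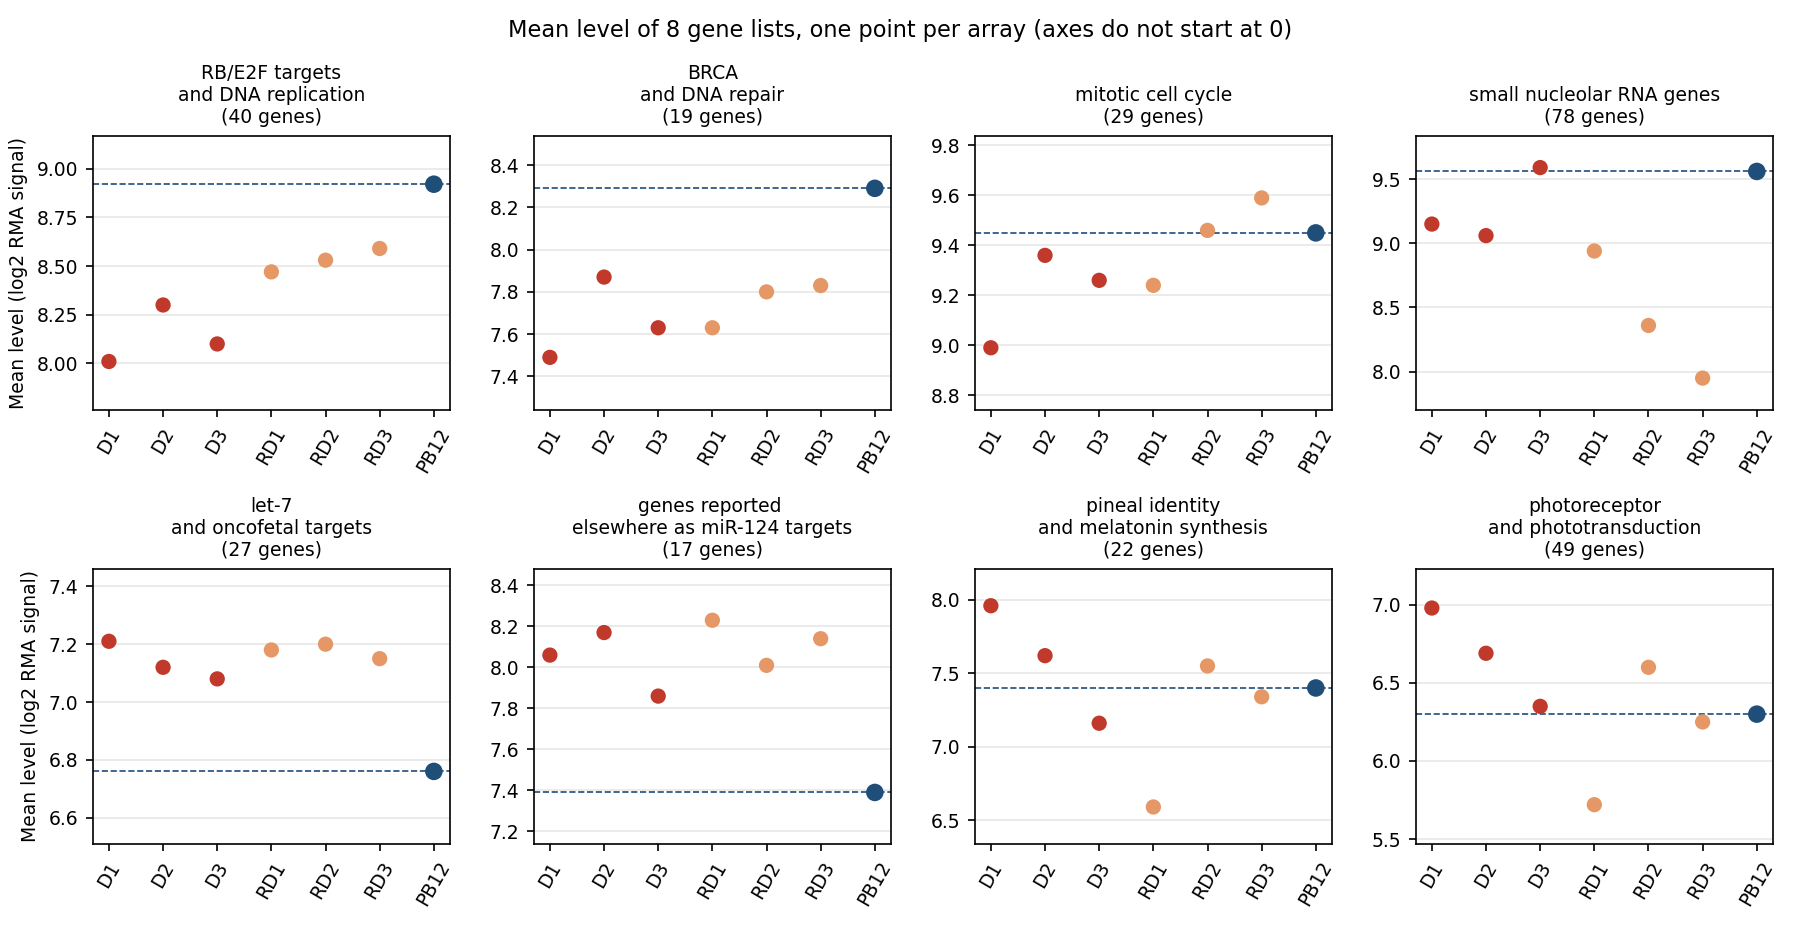
Mean level (log2 RMA signal) of 8 gene lists on each array: D1 to D3, Dicer1/p53-deleted PB1 to PB3; RD1 to RD3, Rb/Dicer1/p53-deleted PB1 to PB3; the dashed line marks Rb/p53-deleted PB12. The 6 Dicer1-deleted tumors lie below PB12 for the E2F targets (8.01 to 8.59 against 8.92) and above it for the let-7 list (7.08 to 7.21 against 6.76), and on both sides of it for the pineal and photoreceptor lists.

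Targets of let-7, a microRNA family that represses genes of embryonic growth, had more members above than below PB12. Of 27 measured targets of let-7 and other oncofetal genes, 11 were higher in all 6 (40.7%, against 18.4% of all genes) and 2 lower, with a median difference of 0.34. Igdcc3, a surface protein, stood at 8.74, 7.93 and 7.12 in Dicer1/p53-deleted PBs and 7.41, 8.0 and 8.23 in Rb/Dicer1/p53-deleted PBs, against 5.50 in PB12. Ccnd2, which encodes cyclin D2, ranged from 11.90 to 12.32 against 10.44, and E2f5, a repressive E2F, from 8.23 to 9.25 against 7.07. The best-known members did not follow: PB12 lay inside the range for Lin28b, Hmga2 and Trim71, and Mycn was lower in all 6 (6.68 to 7.53 against 8.02 in PB12). Lin28b varied from 4.05 to 7.86 among the 6. The median difference of the list was 0.12 for Dicer1/p53-deleted PBs and 0.24 for Rb/Dicer1/p53-deleted PBs when the 3 tumors of each genotype were averaged apart.

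A list of 17 genes reported elsewhere as targets of miR-124 was written after the values were seen and lends no support to any direction. In it 10 were higher (58.8%, against 18.4% of all genes), 2 lower (11.8%) and 5 inside the range, with a median difference of 0.79. The scaffold protein Iqgap1 stood at 8.57, 8.89 and 8.64 in Dicer1/p53-deleted PBs and 9.08, 8.45 and 8.46 in Rb/Dicer1/p53-deleted PBs, against 6.88 in PB12. The laminin chain Lamc1 (8.14 to 8.79 against 6.60 in PB12), the vesicle protein Vamp3 (8.06 to 8.82 against 6.64) and the integrin Itgb1 (10.44 to 11.57 against 9.39) also passed 1 log2 unit. The splicing repressor Ptbp1 ranged from 10.19 to 10.48 against 8.95 in PB12, and its 6 values were within an SD of 0.109. The host transcript Mir124-2hg was higher by 3.02 in the same tumors, while the hairpin entry Mir124a-2 had PB12 inside its range.

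Transcript clusters annotated to microRNA genes read precursor RNA rather than mature microRNA. Over the 483 measured, 86 were higher and 78 lower in all 6, near the background of 18.4%, and 6 and 4 passed 1 log2 unit. Of these, 5 of the 6 higher and 2 of the 4 lower lay in 2 clusters of microRNA genes, and the host transcript Mir124-2hg was the other higher one. On the X chromosome, 4 of 5 measured genes of the Mir106a to Mir363 cluster were lower in the Dicer1-deleted tumors (80.0%, against 18.4% of all genes). This list was written after the values were seen. Mir18b stood at 3.74, 4.36 and 4.85 in Dicer1/p53-deleted PBs and 4.37, 4.18 and 4.66 in Rb/Dicer1/p53-deleted PBs, against 7.47 in PB12, and Mir363 stood at 3.20, 3.04 and 3.41 in Dicer1/p53-deleted PBs and 3.45, 3.21 and 4.64 in Rb/Dicer1/p53-deleted PBs, against 5.88 in PB12. Mir20b, between them, had PB12 inside the range (2.83 to 4.05 against 3.84). In the paralogous Mir17 to Mir92 cluster of chromosome 14, 2 of 4 measured genes were lower, neither by more than 0.04.

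The other cluster was the imprinted Dlk1 to Dio3 domain of chromosome 12, where maternally expressed noncoding RNAs, small nucleolar RNAs and many microRNAs lie in a row. Of 54 measured genes from Dlk1 to Dio3, 37 were higher in all 6 Dicer1-deleted tumors (68.5%, against 18.4% of all genes), 1 was lower (Mir299a, at a distance of -0.09) and 16 had PB12 inside the range. This list, too, was drawn up after the values were seen, so its share is a description only. Of the 43 microRNA genes 29 were higher, and of the 11 other genes 8. Rian, a maternally expressed noncoding RNA that hosts the small nucleolar RNAs, stood at 10.76, 9.32 and 10.80 in Dicer1/p53-deleted PBs and 10.86, 9.61 and 9.26 in Rb/Dicer1/p53-deleted PBs, against 6.84 in PB12. Of the small nucleolar RNAs, AF357425 ranged from 8.88 to 10.65 against 6.96 and DQ267102 from 7.66 to 10.12 against 6.34. Mir453 ranged from 7.61 to 9.84 against 5.26, Mir382 from 4.9 to 6.54 against 3.42 and Mir300 from 3.90 to 6.03 against 2.42. Meg3, at the near end of the domain, was higher by only 0.11 (5.21 to 6.02 against 5.10), and the paternally expressed Dlk1 had PB12 inside the range, since Dicer1/p53-deleted PB2 was at 5.84 against 6.34 in PB12. The genes of a domain are not independent: Dicer1/p53-deleted PB1 and PB3 and Rb/Dicer1/p53-deleted PB1 were the 3 highest for Rian, for both small nucleolar RNAs and for Mir300 and Mir453. This domain varied widely in the other Rb/p53-deleted tumors as well, with ranges over PB1 to PB11 of 2.16 for Rian, 3.14 for Mir382, 3.09 for Mir300 and 2.99 for DQ267102.

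**Figure D4:**
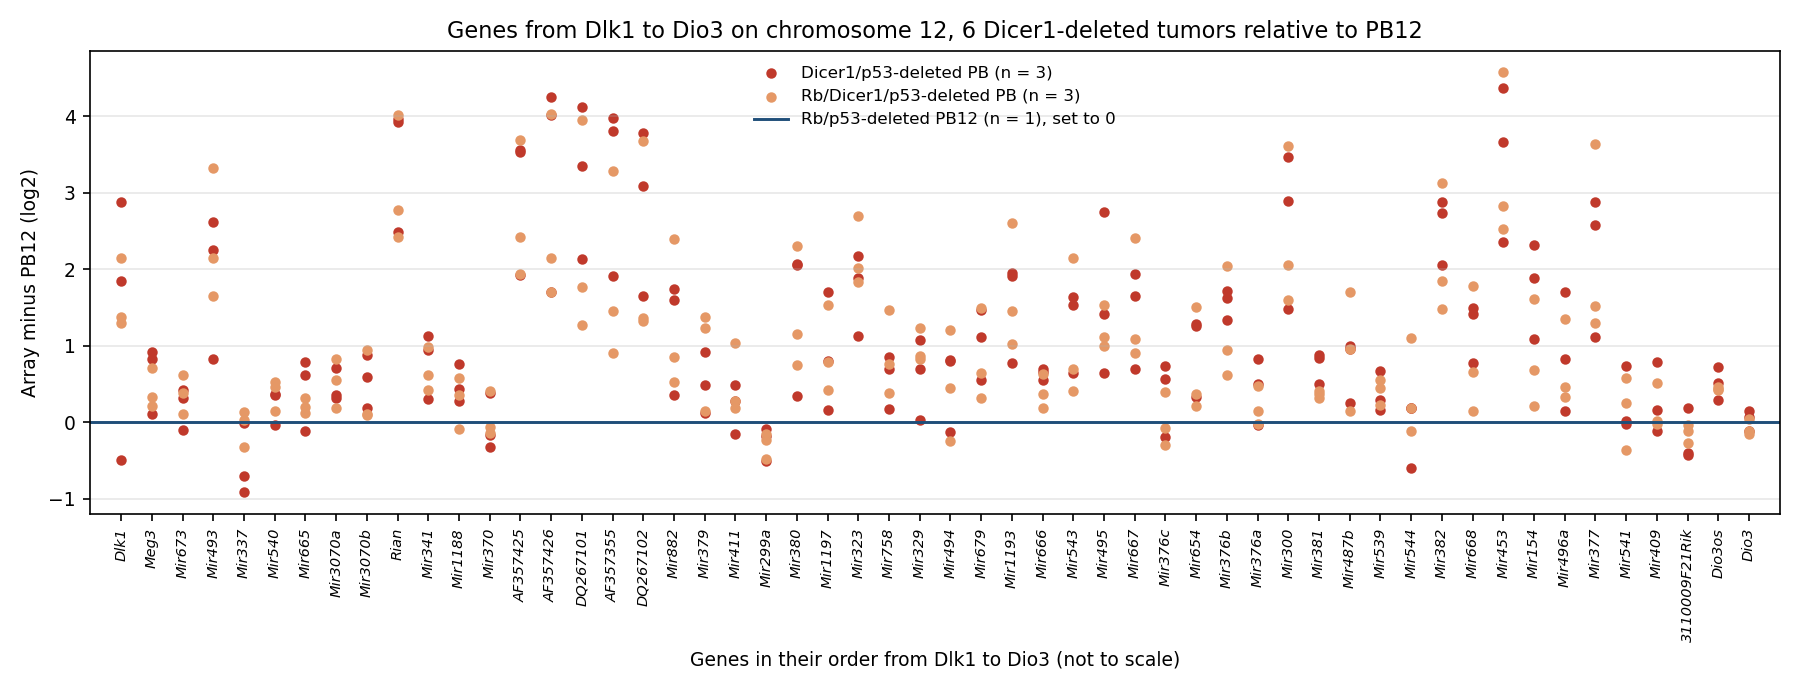
Level of each Dicer1-deleted tumor minus that of PB12 (log2, 1 circle per array) for the 54 measured genes from Dlk1 to Dio3 in their order on chromosome 12, with PB12 as the line at 0. In 37 genes all 6 circles lie above the line, farthest for Rian (nearest circle at 2.42) and Mir453 (2.35), and in 1 gene, Mir299a, all lie below it.

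The mature sequences of the microRNAs in these results that RefSeq holds (build GRCm38.p6) are shown with the seed, bases 2 to 8, in capitals. All 7 seeds differ. That of let-7a-5p is shared by 13 mature mouse microRNA entries of the table, that of miR-363-3p by 7, that of miR-18b-5p by 2, and the 4 from the Dlk1 to Dio3 domain have a seed of their own.
let-7a-5p (chr13:48538239-48538260, minus strand): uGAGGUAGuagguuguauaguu
miR-18b-5p (chrX:52742381-52742403, minus strand): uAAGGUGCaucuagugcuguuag
miR-363-3p (chrX:52741697-52741718, minus strand): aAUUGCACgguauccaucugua
miR-323-3p (chr12:109712558-109712578, plus strand): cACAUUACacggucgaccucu
miR-300-3p (chr12:109724363-109724384, plus strand): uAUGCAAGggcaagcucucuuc
miR-382-5p (chr12:109733781-109733802, plus strand): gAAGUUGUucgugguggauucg
miR-377-3p (chr12:109740553-109740574, plus strand): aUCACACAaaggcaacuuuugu

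The imprinted genes outside this domain were mixed. Of 26 measured, 6 were higher in all 6 Dicer1-deleted tumors (23.1%, against 18.4% of all genes), 3 lower (11.5%) and 17 had PB12 inside the range, with a median difference of 0.06. Besides Igf2, only Grb10, an adaptor that dampens insulin and IGF receptor signalling, passed 1 log2 unit, with 8.41, 6.85 and 8.78 in Dicer1/p53-deleted PBs and 7.42, 9.88 and 8.03 in Rb/Dicer1/p53-deleted PBs, against 5.24 in PB12. Igf2r, the receptor that clears IGF2, had a distance of 0.73. Cdkn1c, a growth-restraining inhibitor of cyclin-dependent kinases, was lower by 0.72 in the nearest tumor. In the RB pathway, 4 of 22 genes were higher (18.2%, as in the background of 18.4%) and 8 lower (36.4%). D-type cyclins Ccnd2 and Ccnd3 (7.32 to 8.80 against 6.05 in PB12) and E2f5 were higher by more than 1 log2 unit, and the kinase inhibitor Cdkn2c (6.47 to 7.97 against 9.0) was lower, whereas Ccnd1, Cdk4 and Cdkn2a had PB12 inside the range.

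The transcription factors Crx and Otx2 were well above the median on all 7 arrays. Others of the pineal list were not, such as Isl1 (4.04 to 5.65 against 5.69 in PB12) and Lhx3 (4.69 to 6.39 against 4.94). Crx ranged from 10.03 to 10.82 in Dicer1-deleted tumors against 9.79 in PB12 and Otx2 from 9.71 to 10.60 against 10.10. Tph1, the first enzyme of serotonin synthesis, stood at 9.88, 7.98 and 8.95 in Dicer1/p53-deleted PBs and 7.08, 10.13 and 9.73 in Rb/Dicer1/p53-deleted PBs, against 11.01 in PB12. Aanat, the enzyme that sets melatonin output, was at 5.12 to 6.48 against 4.38 in PB12, near the lower quartile of the PB12 array (4.092). Among the Dicer1-deleted tumors it lay below the array median only in Rb/Dicer1/p53-deleted PB1 (5.12 against 5.291). It was highest above it in Dicer1/p53-deleted PB1 (6.48 against 5.273). Of 22 measured pineal genes 7 were higher (31.8%), 6 lower (27.3%) and 9 inside, against 18.4% of all genes in each direction. Both genes past 1 log2 unit were lower: the nicotinic receptor subunit Chrnb4 (5.94 to 9.47 against 11.30 in PB12) and the proneural factor Neurod4 (7.59 to 8.79 against 10.28). Of 49 photoreceptor genes 11 were higher (22.4%) and 8 lower (16.3%), close to the background. The cone channel subunit Cngb3 stood at 5.55, 4.75 and 6.93 in Dicer1/p53-deleted PBs and 3.71, 6.33 and 3.96 in Rb/Dicer1/p53-deleted PBs, against 9.12 in PB12, and the ciliary protein Rpgrip1 ranged from 6.68 to 7.30 against 8.92. The rod phosphodiesterase subunit Pde6b went the other way, at 5.93 to 8.46 against 4.67 in PB12. The mean level of the pineal list was 7.96, 7.62 and 7.16 in Dicer1/p53-deleted PBs and 6.59, 7.55 and 7.34 in Rb/Dicer1/p53-deleted PBs, against 7.40 in PB12, so PB12 lay inside the range, with Rb/Dicer1/p53-deleted PB1 the lowest.

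Genes of other cell types were compared in the same way, since in bulk tissue fewer cells of a type and less RNA per cell cannot be told apart. Of 30 collagen and mesenchyme genes 10 were higher in all 6 Dicer1-deleted tumors (33.3%) and 3 lower. The intermediate filament Vim stood at 10.99, 11.06 and 11.36 in Dicer1/p53-deleted PBs and 11.46, 11.29 and 10.60 in Rb/Dicer1/p53-deleted PBs, against 9.10 in PB12, and was the only one past 1 log2 unit. Fn1 was higher by 0.63 and Col1a1 by 0.08, and the list's mean level was 5.83 to 6.71 against 5.67 in PB12. Endothelial and pericyte genes had 6 of 22 higher (27.3%) and 1 lower (4.55%), with a mean level of 5.70 to 6.23 against 5.63 in PB12. Microglia and macrophage genes had 5 of 22 higher (22.7%) and none lower, none of them by more than 0.18. Their mean level, 5.75 to 6.67 against 5.88 in PB12, overlapped. Lymphocyte (22 measured genes), oligodendrocyte (13), astrocyte (14), choroid plexus (11), ependymal (13) and pituitary (12) lists each had at most 3 genes on either side of PB12. These lists are small, and their share of higher genes ran from 4.55% (lymphocyte) to 21.4% (astrocyte) and 23.1% (ependymal), against 18.4% of all genes. Their share of lower genes was at most 14.3% (astrocyte). Of 12 skeletal muscle genes 4 were higher (33.3%) and 3 lower, none of them by 1 log2 unit. Of 8 Purkinje cell genes 4 were lower (50%, against 18.4% of all genes) and 1 higher, with the calcium-binding protein Calb1 at 3.99 to 5.15 against 6.43 in PB12 and the other 3 lower by at most 0.24 in the nearest tumor. The part of stromal genes in the differences above was not tested.

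**Figure D5:**
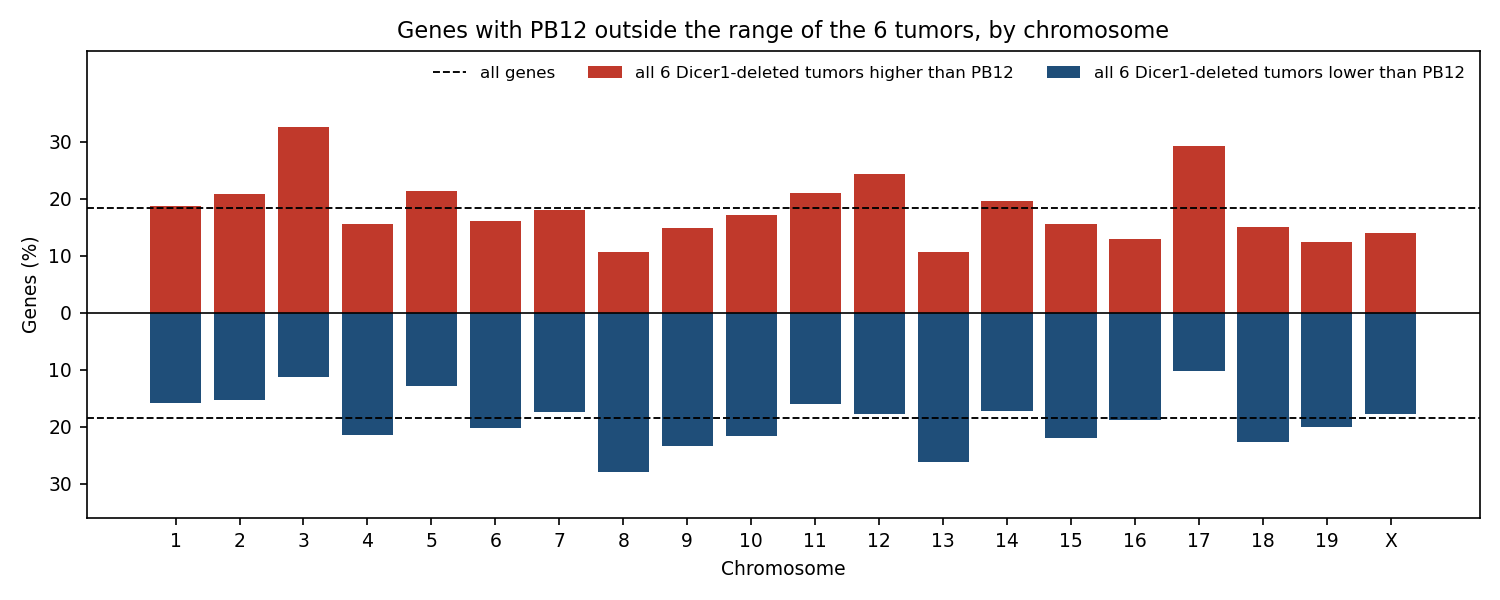
Percent of the measured genes of each chromosome for which all 6 Dicer1-deleted tumors were higher than PB12 (upward bars) or lower than PB12 (downward bars), with the 18.4% of all genes as dashed lines. Chromosomes 3 (32.7%) and 17 (29.2%) reach highest and chromosomes 8 (28.0%) and 13 (26.2%) lowest among chromosomes 1 to 19 and X, with the mitochondrial genome not drawn.

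The genes outside the range were unevenly spread over the chromosomes. On chromosome 3 all 6 Dicer1-deleted tumors were higher than PB12 in 344 of 1051 genes (32.7%) and lower in 11.3%, and on chromosome 17 they were higher in 313 of 1072 genes (29.2%) and lower in 10.2%. The reverse held on chromosome 8, with 28.0% lower and 10.7% higher, and on chromosome 13, with 26.2% lower and 10.6% higher. Over genes above the median level, the median difference from PB12 was mostly small and had the same sign in every tumor for chromosomes 3, 13 and 17. For chromosome 3 it was 0.32, 0.35 and 0.33 in Dicer1/p53-deleted PBs and 0.23, 0.32 and 0.46 in Rb/Dicer1/p53-deleted PBs. For chromosome 17 it was 0.24, 0.30 and 0.08 in Dicer1/p53-deleted PBs and 0.36, 0.21 and 0.26 in Rb/Dicer1/p53-deleted PBs. For chromosome 13 it was -0.14, -0.08 and -0.13 in Dicer1/p53-deleted PBs and -0.06, -0.14 and -0.56 in Rb/Dicer1/p53-deleted PBs. Chromosome 8 was less uniform, since Rb/Dicer1/p53-deleted PB1 stood at 0.14 and the other 5 between -0.39 and -0.16. The mitochondrial genome had 9 of its 10 measured genes higher in all 6 tumors, by 0.18 at the median. Chromosomes 3 and 17 held 31 of the 156 genes higher by 1 log2 unit and 5 of the 200 lower ones, with 2123 of the 22180 genes, and without them the counts were 125 and 195. Mir124-2hg and E2f5 lie on chromosome 3 and Ccnd3 on chromosome 17. The X chromosome held 16 of the 200 lower genes (1.78% of its 899 genes, against 0.902% of all), among them Cfap47 (3.21 to 4.80 against 7.82 in PB12), Heph, Nyx, a synaptic protein of retinal bipolar cells (4.72 to 5.04 against 7.07), and the photoreceptor calcium channel Cacna1f (4.83 to 6.01 against 7.71), beside the low Xist of PB12. Its median difference over genes above the median level ran from -0.46 to 0.53 in single tumors, so the chromosome as a whole showed no common direction. The part of chromosome content and of sex in these differences was not tested.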

How the data were processed

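Tumor RNA was hybridized to Mouse Gene 2.0 ST arrays, and the authors deposited log2 RMA values per transcript cluster made with Affymetrix Expression Console (version not given in the sources used here; which arrays were normalized together is not stated). RMA compresses differences of dim genes; precision is bounded by having few arrays. Of 41345 clusters 23521 carried 1 gene symbol, 1820 several and 16004 none. Only those with 1 symbol were used, of which 23328 matched a RefSeq gene by gene ID, and each of 22180 genes was read from its cluster with the highest mean. A gene was higher or lower where all 6 Dicer1-deleted arrays lay on one side of PB12, and called where the nearest lay at least 1 log2 unit away. No array pair was identical. The 15 genes per direction farthest from the range, up to 4 members of each list, genes named in the study and sex-linked genes could be named; others were chosen after their values were seen. Members, lists and rules were chosen with earlier results of these data known, and 5 lists (meiosis, miR-124, 2 microRNA clusters and the Dlk1 to Dio3 domain) after these values were seen. The distance rule was run on simulated data with large shifts, as a check of the code only. Computations used Python 3.11.15 with pandas 2.3.3. The 11 Rb/p53-deleted tumors on 1.0 arrays, deposited in the same log2 unit, gave only ranges and, for a few genes, levels read within that version. Alternatives were another scaling, filter, cluster summary or call rule, each array left out, and each genotype alone.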

Additional observations from a re-analysis of the deposited data

Results flagged for a closer look

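Of 83 quantities looked at over the 6 Dicer1-deleted arrays, 10 had a single array far from the other 5, where chance alone gives about 1 in 20 for independent quantities, and these are not independent. Dicer1/p53-deleted PB3 accounted for 3 of them, with the highest array median (5.36), the narrowest interquartile range (2.55) and the highest mean of the pituitary list (4.48). Igf2 was lowest in Dicer1/p53-deleted PB2, at 7.70, and Shisal1 lowest in Rb/Dicer1/p53-deleted PB1, at 8.15. Rb/Dicer1/p53-deleted PB2 was the highest for 4 of the genes with the greatest distance below PB12: Cfap47 at 4.80, Gm3297 at 4.93, Gm8787 at 3.55 and Heph at 5.82. Gnrh1 was highest in Rb/Dicer1/p53-deleted PB3, at 6.48. Where the gene was called, these values lay on the same side of PB12 as the other 5 arrays by the rule itself.

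Among the genes with the greatest distance and those named in the study, 2 had the Dicer1-deleted genotypes on opposite sides of PB12. Over all 22180 genes, 205 (0.924%) had all Dicer1/p53-deleted tumors above PB12 and all Rb/Dicer1/p53-deleted tumors below it, and 218 (0.983%) the reverse. For Rb1 the 3 Rb/Dicer1/p53-deleted tumors were all below PB12 and the 3 Dicer1/p53-deleted tumors all above it, a difference of -1.16 between the genotype means. For Nes, which encodes the progenitor filament nestin, the difference was -0.39, but Rb/Dicer1/p53-deleted PB1 was only 0.01 below PB12. Neither difference was tested.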

How the results depend on the processing

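Of the counts of 156 higher and 200 lower genes, 154 and 189 genes were kept after quantile normalization of the 7 arrays (163 and 198 called). Leaving out one Dicer1-deleted array gave 161 to 212 higher and 217 to 245 lower genes, and Rb/Dicer1/p53-deleted PB1 was the array whose removal added most in both directions. Calling on the mean of the 6 arrays in place of the nearest gave 674 higher and 683 lower genes, by construction a weaker demand. Dicer1/p53-deleted PBs alone gave 291 and 415, and Rb/Dicer1/p53-deleted PBs alone 322 and 351, with fewer arrays to pass. The number of genes whose distance was greater than their range among Rb/p53-deleted tumors was 214 with PB1 to PB11 and 249 without PB11. Of 51 named genes past 1 log2 unit, 50 stayed past it under each of 13 alternatives. Ndrg1 was at 0.88 when its transcript clusters were averaged. None changed sign. Most alternatives could not have removed a call. Leaving out an array, taking a single genotype or using the mean cannot shorten a distance, and the level filter changes no value. Only quantile normalization, centring on the median and averaging of clusters could have done so. Removing chromosomes 3 and 17 was chosen after seeing the data. No paired analysis was possible because one side has a single array and no test was made. That single array is the main limit: what is particular to PB12 and what belongs to its genotype cannot be told apart from these 7 arrays. Array signal gives no read depth.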

Other observations

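Small nucleolar RNA genes with a Snora, Snord or Scarna symbol lay mostly at or below PB12. None of 78 was higher in all 6 and 37 were lower (47.4%, against 18.4% of all genes), with a median difference of -0.74, and 54 were lower in the other 5 without Dicer1/p53-deleted PB3. Their mean level was 9.15, 9.06 and 9.59 in Dicer1/p53-deleted PBs and 8.94, 8.36 and 7.95 in Rb/Dicer1/p53-deleted PBs, against 9.56 in PB12, so Dicer1/p53-deleted PB3 lay beside PB12 in this mean and the other 5 below it. Only Scarna8 passed 1 log2 unit (6.05 to 6.58 against 7.74 in PB12). Of 25 replication-dependent histone genes 8 were lower (32.0%, against 18.4% of all genes) and 2 higher (8%). Most of the 25 lie on chromosome 13, where 26.2% of all measured genes were lower and 10.6% higher. The mean level of the histone list was 7.24, 7.13 and 7.53 in Dicer1/p53-deleted PBs and 7.10, 6.95 and 6.68 in Rb/Dicer1/p53-deleted PBs, against 7.51 in PB12.

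Immediate early genes, which respond within minutes to stimulation, were lower in 10 of 18 cases (55.6%, against 18.4% of all genes) and higher in 1 (5.56%), with a median difference of -0.56. Npas4 ranged from 4.26 to 5.04 in the Dicer1-deleted tumors against 5.93 in PB12, and Fos from 4.87 to 6.31 against 6.59. Of 13 Hedgehog pathway genes 6 were lower (46.2%) and 3 higher (23.1%), with Gas1 and Ptch1 the farthest (-0.76 and -0.53). Among clock genes 6 of 16 were higher (37.5%, against 18.4% of all genes) and 1 lower (6.25%), and Bhlhe41, a repressor of the clock, ranged from 7.51 to 9.09 against 6.22 in PB12. Of 25 glycolysis and hypoxia genes 7 were higher (28.0%) and 3 lower (12.0%). Ndrg1 and Pfkp lay 1.32 and 0.99 above PB12, while the hypoxia markers Adm and Car9 lay below it, by 0.62 and 0.26 in the nearest tumor.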
